A study of Mus musculus with 2 samples.

Results

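The genes described here encode the respiratory chain and the ATP synthase of mitochondria, together with some of the factors that assemble them. Members were the genes whose resolved symbol begins with Nduf, Sdh, Uqcr, Atp5 or Cox followed by a digit of 4 to 8, or equals Cyc1 or Cycs. The rule found 63 genes, read by 65 of the 20868 gene probes on the arrays: 25 genes of complex I, 5 of complex II, 6 of complex III with cytochrome c, 14 of complex IV and 13 of complex V. Of these, 60 could be tested, among 18074 tested genes.

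The study looked for genes particular to mucosal mast cells by setting mouse cultures at day 20 against cultures at day 4. The cultures grew with TGF-beta1, SCF, IL-9 and IL-3, factors that drive mast cells of the mucosal kind. No strain, age or genotype is named in the labels, and neither are the cells put into culture. Each of 2 two-colour Agilent arrays carried a day 20 pool and a day 4 pool of 3 samples each. On array 1 day 20 was labelled with Cy5 and day 4 with Cy3, and array 2 had the dyes swapped and pools of different origin, so n is 2 ratios of day 20 over day 4.

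The respiratory chain passes electrons from NADH (complex I) and succinate (complex II) through ubiquinone to complex III, from there through cytochrome c to complex IV, and on to oxygen. The proton gradient that complexes I, III and IV build drives complex V, the ATP synthase, which turns ADP into ATP. All but 13 of the subunits are encoded in the nucleus, and mitochondrial DNA encodes the others. Complexes I, III, IV and V therefore need transcripts from both genomes, while the subunits of complex II are all nuclear.

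At day 20, 44 of the 60 tested members were lower than at day 4 and 2 were higher by limma with an adjusted p below 0.05, and 14 did not pass. Over all tested genes 9.27% were lower and 7.82% were higher, so 17.1% passed in either direction, beside 46 of the 60 members. The median member had a log2 ratio of -0.59, a level 1.51-fold lower at day 20, while the median of all tested genes was -0.01. Each array gave a similar median for the members, -0.66 on array 1 and -0.56 on array 2. In these bulk cultures, fewer cells of a type and less RNA per cell cannot be told apart.

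Direction was shared by most members. The ratio lay below 0 on both arrays for 53 of the 60, against 30.3% of all tested genes, and above 0 on both for 4, against 29.0%. A drop of at least 2-fold on both arrays was seen for 6 of the 60 members, against 0.824% of all tested genes, and a rise of that size for none, against 1.06%. Of all tested genes, 4.98% had a mean ratio below the members' median. Across the 60 members the arrays had a Pearson correlation of 0.83, beside 0.77 across all tested genes, and the genes of 1 array share its labelling and normalization. The pooled SD between arrays was 0.20 for the members and 0.19 for all tested genes on the log2 scale.

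**Figure D1:**
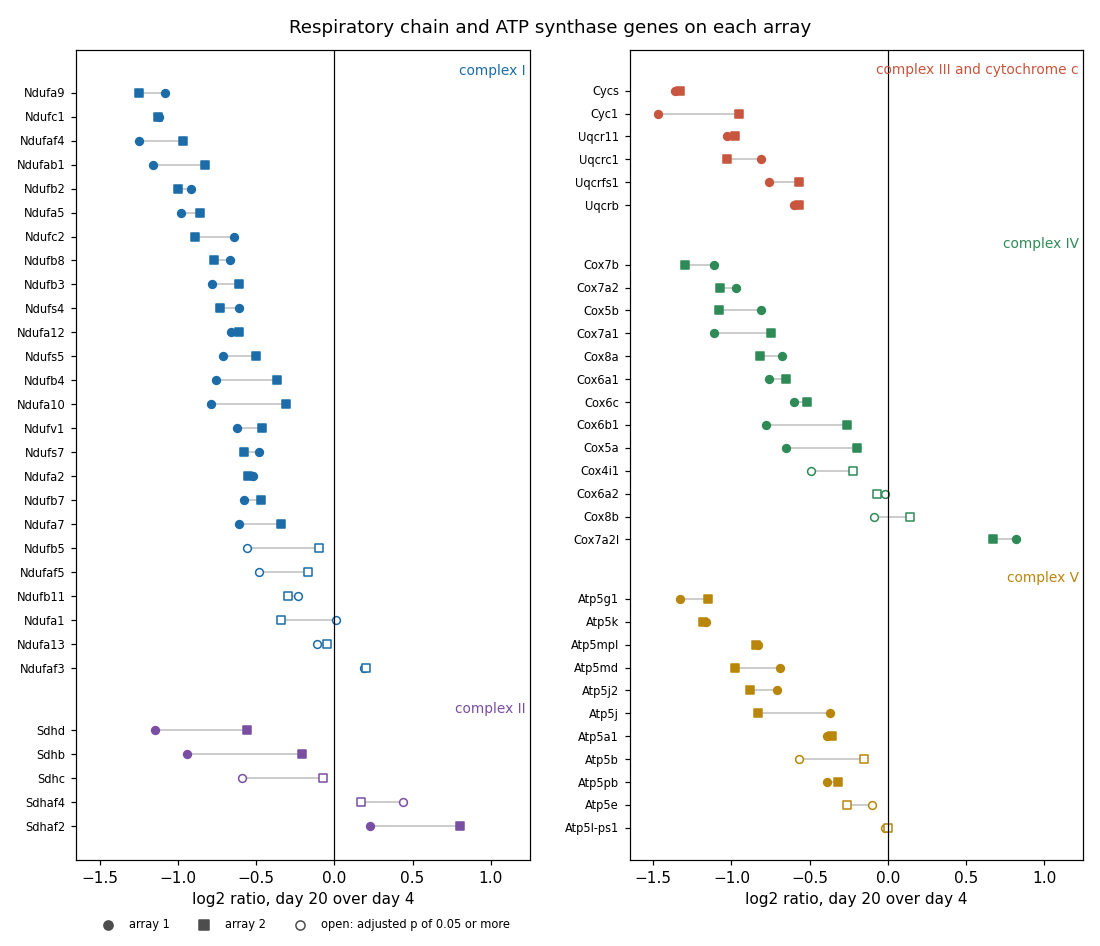
Log2 ratio of day 20 over day 4 (x axis) for each of the 60 tested members (rows, by complex), with array 1 as circles and array 2 as squares; filled symbols passed the test. All 6 genes of complex III and cytochrome c lie left of 0 on both arrays, and Cox7a2l and Sdhaf2 are the filled symbols right of 0.

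**Figure D2:**
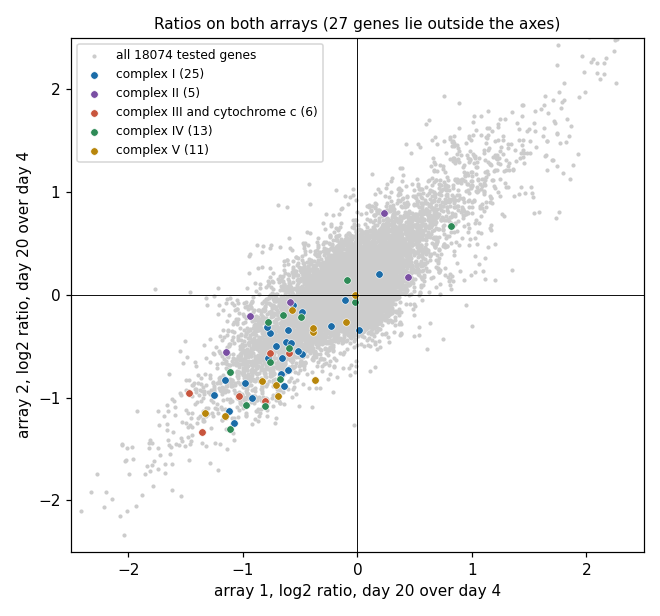
Log2 ratio of day 20 over day 4 on array 1 (x axis) and on array 2 (y axis) for all 18074 tested genes in grey, with the members coloured by complex. The axes leave out 27 genes, and 53 of the 60 members lie below 0 on both axes.

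Some members past the threshold in each direction are shown with the DNA before their start sites, because nuclear respiratory factor 1 (NRF1) and GA-binding protein (GABP, an ETS factor) are textbook activators of such genes. RefSeq promoters of GRCm38.p6 were held for 52 of the 63 members, and the 200 bases before the start of 4 of them are printed 5′ to 3′ on the strand of the gene. They were chosen after their values were seen: Cycs, Atp5k and Ndufaf4 passed as lower under all 8 alternative settings and hold the NRF1 core GCATGCG on both strands, in overlapping matches, and Cox7a2l had the highest ratio. Capitals mark the core matches. Cycs lies on the minus strand at chr6:50566570-50566769, Atp5k on the minus strand at chr5:108434400-108434599, Ndufaf4 on the plus strand at chr4:24897883-24898082, and Cox7a2l, which has no match in this window, on the minus strand at chr17:83514334-83514533.
Cycs: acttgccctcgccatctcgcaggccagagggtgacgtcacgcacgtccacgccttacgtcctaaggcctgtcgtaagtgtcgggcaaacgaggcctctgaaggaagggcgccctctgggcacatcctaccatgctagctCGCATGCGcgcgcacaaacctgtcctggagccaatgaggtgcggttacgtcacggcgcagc
Atp5k: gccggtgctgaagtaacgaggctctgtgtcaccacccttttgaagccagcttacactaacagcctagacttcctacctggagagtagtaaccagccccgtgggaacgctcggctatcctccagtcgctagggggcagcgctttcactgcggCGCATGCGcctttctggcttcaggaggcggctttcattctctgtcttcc
Ndufaf4: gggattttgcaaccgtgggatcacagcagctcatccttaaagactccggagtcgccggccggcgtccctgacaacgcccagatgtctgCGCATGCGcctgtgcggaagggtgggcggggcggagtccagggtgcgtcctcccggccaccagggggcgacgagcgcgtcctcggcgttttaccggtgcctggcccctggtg
Cox7a2l: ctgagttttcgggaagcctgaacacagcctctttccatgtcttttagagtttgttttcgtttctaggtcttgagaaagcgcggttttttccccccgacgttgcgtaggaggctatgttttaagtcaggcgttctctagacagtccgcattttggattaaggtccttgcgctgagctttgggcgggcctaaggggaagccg

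Counted from the start, the first base of the core match lay at -61 in Cycs, -49 in Atp5k and -112 in Ndufaf4, each with a match on the other strand 1 base nearer. Over 250 bases before the start and on both strands, the NRF1 core was found in 6 of 52 members (11.5%). Of the 52 members, 38 were lower, 10 did not pass and 2 were higher, and all 6 were among the lower ones. Most lower members did not hold the core, which was found in 15.8% of the 38. Whether the core goes with direction was not tested. The core was found in 5.2% of the 6715 tested genes with a promoter and in 3.43% of all 27025 genes with a promoter. The other 3 members with the core were Sdhb, Cox6a1 and Atp5j. The ETS motif CCGGAAG was found in 8 members (15.4%), among them Uqcr11, Sdhd and the higher Sdhaf2. It was found in 11.5% of tested genes and 7.83% of all genes with a promoter. The YY1 motif AAGATGGC was found in 1 member, Atp5j, against 1.83% of all genes with a promoter. The extended ERR half-site TCAAGGTCA was found in no member, against 0.422% of these genes. In all, 12 members held any of these 4 motifs. A match is a run of letters and was not tested as a bound site.

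Complex I, the entry point for electrons from NADH, had 19 of its 25 genes lower, none higher, and a median log2 ratio of -0.56. The 6 genes that did not pass were Ndufb5, Ndufb11, Ndufa1, Ndufa13, Ndufaf3 and Ndufaf5. Ndufa9, an accessory subunit of the module that hands electrons to ubiquinone, had the lowest mean in the complex. Its normalized intensity was 782 on array 1 and 652 on array 2 at day 20, against 1650 and 1549 at day 4. Within each array, and across the arrays, its day 20 values lay below its day 4 values, with a log2 ratio of -1.16 ± 0.12 (SD, n = 2; limma adjusted p 9.45e-06). Intensities carry an offset of 50 and have no unit, so a level is read only against the other day on the same probe and array. Normalization was within arrays, so overlap of values across arrays, or its absence, mixes the days with the arrays.

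Genes of the other modules of complex I were lower as well. Both core members on the array, Ndufv1, the flavoprotein that takes electrons from NADH, and Ndufs7, the iron-sulphur protein next to the quinone site, were lower at -0.54 ± 0.12 and -0.53 ± 0.07. All 4 members that are accessory subunits around the NADH site were lower, by a median of -0.58. Ndufs4 was lowest at -0.67 and Ndufa7 nearest 0 at -0.47. A probe without a symbol, described as 1 alpha subcomplex, 6, had 0.20 and 0.33 on the arrays and did not pass (limma adjusted p 0.147). Ndufa5, the second accessory subunit of the quinone module, was at -0.92 ± 0.08.

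In the membrane arm of complex I, which pumps protons, 9 of 13 accessory subunits were lower. Ndufc1 had intensities of 789 and 393 at day 20, against 1710 and 858 at day 4, and Ndufb2 had 1540 and 811 at day 20, against 2904 and 1626 at day 4. Both fell on each array, by log2 ratios of -1.12 ± 0.01 for Ndufc1 and -0.96 ± 0.06 for Ndufb2. Ndufc2 (-0.76), Ndufb8 (-0.72), Ndufb3 (-0.69), Ndufs5 (-0.61), Ndufb4 (-0.56), Ndufa10 (-0.55) and Ndufb7 (-0.52) followed. The 4 that did not pass had means of -0.33 for Ndufb5, -0.27 for Ndufb11, -0.17 for Ndufa1 and -0.08 for Ndufa13.

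Ndufab1, the mitochondrial acyl carrier protein, which also serves fatty acid synthesis in mitochondria, was lower at -0.99 ± 0.24. It was among the dim members, with intensities of 165 and 110 at day 20, against 370 and 195 at day 4. Of the 3 complex I assembly factors, Ndufaf4 was lower, at -1.25 on array 1 and -0.97 on array 2, and its intensities were 439 and 346 at day 20, against 1043 and 677 at day 4. The other assembly factors did not pass: Ndufaf5 had a mean of -0.32 and Ndufaf3 one of 0.20. Ndufaf5 passed in 1 of 8 alternative settings, limma with an intensity trend and a robust prior (adjusted p 0.0355).

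Complex II, succinate dehydrogenase, which also works in the citric acid cycle, had 2 of 5 genes lower, 1 higher and a median log2 ratio of -0.33. Of its 3 subunits on the array with a symbol, Sdhd, a membrane anchor, was lower at -1.15 on array 1 and -0.56 on array 2, and Sdhb, the iron-sulphur subunit, was lower at -0.94 and -0.21. The gap of 0.72 between the arrays for Sdhb was the largest of any member. Sdhc, the other membrane anchor, had -0.59 and -0.07 and did not pass (limma adjusted p 0.121). The median of the complex was -0.59 on array 1 and -0.07 on array 2, so its size rested on array 1.

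The assembly factors of complex II had ratios above 0 on both arrays. Sdhaf2, which is known for attaching the flavin cofactor to the catalytic subunit, had intensities of 428 and 291 at day 20, against 365 and 167 at day 4. Day 20 was above day 4 within each array, while the values overlapped across the arrays. Its log2 ratio was 0.52 ± 0.40 (limma adjusted p 0.0174), and with the scanner software's ratios or median centring it no longer passed (adjusted p 0.173 and 0.217). Sdhaf4, another assembly factor, had 0.31 ± 0.19 and did not pass (adjusted p 0.104).

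In complex III and cytochrome c all 6 genes were lower, with a median log2 ratio of -0.96, a 1.95-fold difference. Cycs encodes cytochrome c, the carrier between complexes III and IV that also triggers apoptosis when it leaves the mitochondrion. Its intensities were 2035 and 839 at day 20, against 5240 and 2104 at day 4. The day 20 value was below the day 4 value of the same array by almost the same ratio each time, -1.36 and -1.33, and its mean of -1.35 ± 0.03 was the lowest of all members (limma adjusted p 2.23e-06). A second, dimmer Cycs probe was also lower, by -0.84 and -0.61 (mean -0.72, adjusted p 0.000446), so the direction was shared and the size was not.

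Cyc1, the cytochrome of complex III that passes electrons to cytochrome c, had intensities of 781 and 727 at day 20, against 2164 and 1404 at day 4. Both day 20 values lay below both day 4 values, and its log2 ratio was -1.21 ± 0.37. Uqcr11, a small subunit, and Uqcrc1, a core protein, were lower, at -1.03 and -0.98 on the arrays for Uqcr11 and -0.81 and -1.03 for Uqcrc1. Uqcrfs1, the Rieske iron-sulphur protein, was at -0.66 ± 0.13 and Uqcrb, the binding protein of the complex, at -0.58 ± 0.02.

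Complex IV, cytochrome c oxidase, had 9 of 13 tested genes lower, 1 higher and a median log2 ratio of -0.56. Of the 9 subunits found in most tissues, 8 were lower, with a median of -0.71. Cox7b had intensities of 1299 and 850 at day 20, against 2806 and 2100 at day 4, and Cox5b had 3611 and 3587 at day 20, against 6312 and 7584 at day 4. Day 20 was below day 4 without overlap for both genes, with log2 ratios of -1.21 ± 0.14 and -0.94 ± 0.19. Cox8a (-0.75), Cox6a1 (-0.71), Cox6c (-0.56), Cox6b1 (-0.52) and Cox5a (-0.43) were lower as well. Cox4i1 was just outside the threshold, with -0.49 and -0.22 on the arrays and an adjusted p of 0.0538, or 0.0454 under the filter that asked for a clear signal in each of the 4 channels.

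Several complex IV subunits come as a form made in most tissues and a form known mainly from heart and skeletal muscle or lung. In the Cox7a family, Cox7a2, the widespread form, was lower at -1.02 ± 0.07, with intensities of 2081 and 1508 at day 20, against 4090 and 3162 at day 4. Cox7a1, the heart and muscle form, was lower at -0.93 ± 0.25, with much dimmer spots of 189 and 205 at day 20, against 407 and 344 at day 4. Both of these forms were lower on both arrays, without overlap between the days. Cox6a1, the widespread form, was lower at -0.71, and its muscle form Cox6a2 had -0.05 and did not pass. Likewise Cox8a was lower at -0.75, and its muscle form Cox8b had 0.03 and did not pass. The differences between forms were not tested. Cox4i2, the lung form, was not tested because its spot was dim on array 2, and it had ratios of 0.12 and -0.11.

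Cox7a2l belongs to the Cox7a family by sequence but is known in the mouse as the factor that joins complexes III and IV into supercomplexes. Its intensities were 8829 and 7063 at day 20, against 4989 and 4429 at day 4. Both day 20 values lay above both day 4 values, and its log2 ratio was 0.75 ± 0.11, a 1.68-fold difference and the highest of the members (limma adjusted p 0.000321). It had the same sign under every alternative, from 0.52 to 0.80, and no longer passed with the scanner software's ratios (0.78, adjusted p 0.0655) or with median centring (0.52, adjusted p 0.0514).

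Complex V, the ATP synthase, had 8 of 11 tested genes lower, none higher, and a median log2 ratio of -0.60. Of the 8 lower genes, 5 belong to the c ring and the other membrane subunits. Atp5g1, a gene for the c subunit that forms the rotor ring in the membrane, had intensities of 1531 and 1409 at day 20, against 3860 and 3125 at day 4. Both day 20 values were under both day 4 values, and its log2 ratio was -1.24 ± 0.13. Atp5k, subunit e, had 390 and 241 at day 20, against 872 and 547 at day 4, and was lower by almost the same ratio on each array (-1.17 ± 0.02). The other small membrane subunits were lower too: Atp5md and Atp5mpl had -0.83 each and Atp5j2, subunit f, had -0.80.

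The catalytic head and the stalk that holds it had medians of -0.36 and -0.48, beside -0.83 for the membrane subunits outside the c ring, a difference that was not tested. In the head, Atp5a1, the alpha subunit, was lower at -0.37 ± 0.02 (limma adjusted p 0.033), while Atp5b, the catalytic beta subunit, had -0.57 and -0.15 and an adjusted p of 0.0688. Atp5e, the epsilon subunit, had -0.18 and did not pass. In the stalk, Atp5j, coupling factor F6, was at -0.60 ± 0.33 and Atp5pb, subunit b, at -0.36 ± 0.05, with a second Atp5pb probe at -0.41 (adjusted p 0.0371). The calls on Atp5a1 and Atp5pb were lost with an intensity trend and a robust prior (adjusted p 0.161 and 0.127), with an offset of 0, with the scanner software's ratios and with median centring. Atp5c1, the gamma subunit, and Atp5o, the stalk protein that confers oligomycin sensitivity, were not tested, since the scanner software marked their spots as outliers on array 2. With those spots kept they had -0.33 (adjusted p 0.0647) and -0.76 (adjusted p 0.000464). The pseudogene Atp5l-ps1 was dim, though well above background in all 4 channels by the scanner software, with intensities of 64 and 75 at day 20, against 65 and 74 at day 4.

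**Figure D3:**
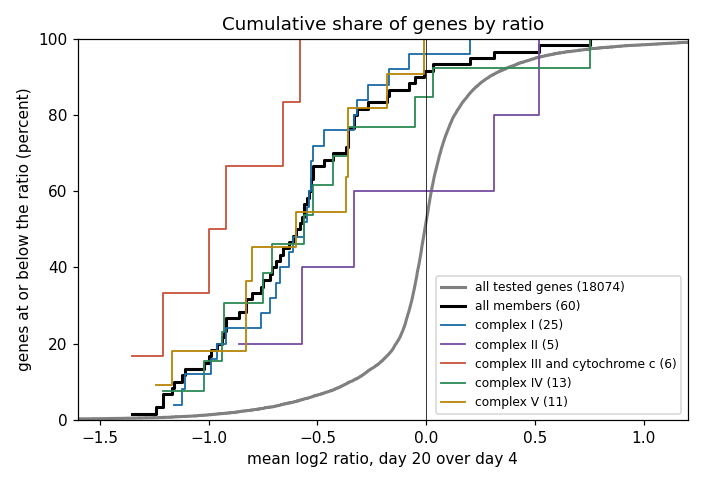
Percent of genes (y axis) at or below a given mean log2 ratio of day 20 over day 4 (x axis) for all members, each complex and all 18074 tested genes. The curve of all members crosses its median at -0.59 and that of all tested genes at -0.01, and complex III with cytochrome c is furthest left, with a median of -0.96.

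Further probes are described as subunits without a symbol, so the rule did not take them. They were picked from the descriptions after the members' values were known. Some describe a subunit that is also a member, such as the binding protein of complex III, so not all are further subunits. Of 20 such nuclear probes that were tested, 15 were lower, none was higher, and the median was -0.52. The count was 5 with the scanner software's ratios and 8 with an offset of 0. Among the 15 were the 75 kDa iron-sulphur subunit of complex I (-0.67), the core protein 2 of complex III (-0.62) and subunit VIIc of complex IV (-0.81). The probes described as c subunit isoform 1, isoform 2 and P3 of the ATP synthase were all lower, at -1.12, -0.53 and -0.91. The flavoprotein subunit of complex II (-0.06) and the hinge protein of complex III (0.38 on array 1 and -0.38 on array 2) did not pass. Neither did the probe described as 1 alpha subcomplex, 6 of complex I, with 0.20 and 0.33. For the binding protein of complex III, the probes disagreed, one at -0.04 and the other at -0.98, beside -0.58 for the probe with the symbol Uqcrb. The probe described as 1 alpha subcomplex, 4 was lower at -0.96, while that described as the MLRQ subunit had -0.03 and did not pass. MLRQ is an older name used for this subunit or a homolog of it, so these probes may disagree too. The subunit carries a complex I name but is counted as a subunit of complex IV.

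Both probes for subunits encoded in mitochondrial DNA had ratios above 0 on each array. The probe described as cytochrome c oxidase polypeptide I was higher, with 0.52 and 0.73 on the arrays (mean 0.62, limma adjusted p 0.00158). The call was lost under the ratios of the scanner software (adjusted p 0.0703) and under median centring (0.0528). The probe of subunit II had 0.39 and 0.17 and did not pass (adjusted p 0.137), and its sign turned with median centring (-0.10). Both subunits form the catalytic core of complex IV, around which the nuclear subunits described above are built. The difference between the mitochondrial and the nuclear probes was not tested.

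Other genes of the pathway were counted on lists outside the rule. Of 12 tested assembly factors, 6 were lower and none higher, with a median of -0.33. The count was 2 with median centring and 3 with the scanner software's ratios or an offset of 0. The 6 were led by Cox16 (-0.91), a complex IV assembly factor, Lrpprc (-0.84), which stabilizes mitochondrial messenger RNAs, and Ecsit (-0.83), a complex I assembly factor. Of 9 carriers and channels that move adenine nucleotides, phosphate and protons, 6 were lower and 1 was higher, with a median of -0.66. The channel Vdac1 had -0.72 and the phosphate carrier Slc25a3 had -0.68, while Ucp2, an inner membrane transporter of the uncoupling protein family, was higher at 0.40 (adjusted p 0.0226). None of the 9 passed with the scanner software's ratios.

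The remaining lists had medians nearer 0. Of 8 tested genes for ubiquinone synthesis and other electron entry, 2 were lower, and the median was 0.01. These were Pdss1, which makes the ubiquinone side chain, at -0.84 and Dhodh, an enzyme of pyrimidine synthesis, at -0.48. With median centring or the scanner software's ratios, 1 of the 8 was lower. Of 12 regulators of mitochondrial biogenesis, 3 were lower, with a median of -0.13. Gabpb1, a subunit of GABP, had -0.77, Myc -0.64 and Tfb2m, a mitochondrial transcription factor, -0.37. That count was 1 with median centring or the scanner software's ratios, and 4 with an offset of 0. Gabpa, which binds DNA in GABP, had 0.03, Esrra 0.07 and Tfam, which packages mitochondrial DNA, -0.22, and none of these 3 passed. Nrf1 and Ppargc1a were on the arrays, but their probes were too dim for the filter and were not tested. The V-type ATPase, a proton pump of lysosomes and secretory granules that is related to the ATP synthase, had 2 of 14 tested genes higher, Atp6ap1 at 0.60 and Atp6v1g1 at 0.47, and 1 lower, Atp6v0c at -0.46, with a median of 0.08. All 3 of these calls were lost with median centring and with the scanner software's ratios.

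**Figure D4:**
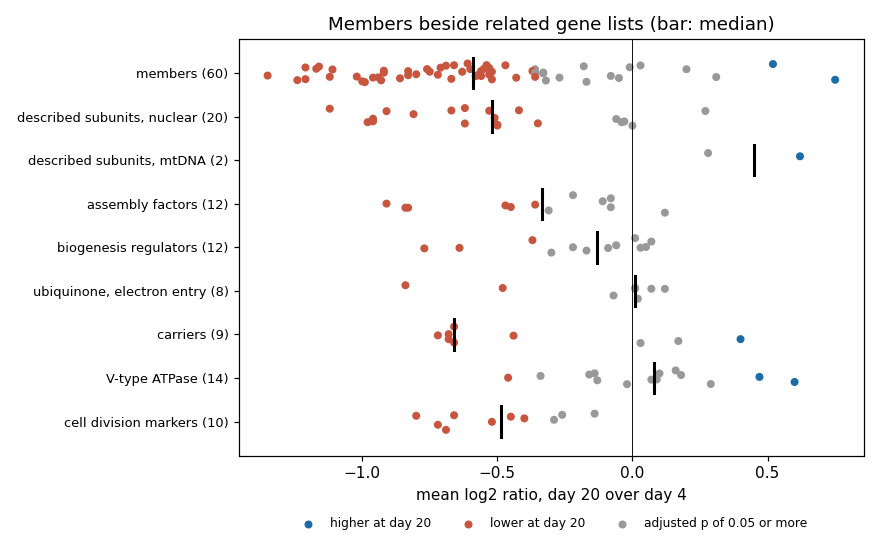
Mean log2 ratio of day 20 over day 4 (x axis) for each tested gene of the members and of related lists (rows), coloured by the limma call, with the median as a bar. Among the lists drawn, which leave out the cell type markers, the carriers, at -0.66, and the cell division markers, at -0.49, have medians near that of the members, and the V-type ATPase, at 0.08, does not.

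Marker genes of blood cell types differed between the days. Of 10 tested mast cell markers 8 were higher, with a median of 1.40, and their summed intensity was 362000 and 272000 at day 20, against 82000 and 72100 at day 4. The proteases Cma1 and Tpsab1 were saturated at day 20 on both arrays and were at least 7.95-fold and at least 4.78-fold higher. Mcpt1 was saturated at day 20 on array 1, so the day 20 sums are lower bounds. Fcer1a, a chain of the IgE receptor, had 2.11, while Hdc, which makes histamine, was lower at -1.28. Kit and Cpa3 had spots marked as outliers and were not tested. With marked spots kept, 12 mast cell markers were tested, of which 10 were higher and 1 was lower, with a median of 1.59.

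Markers of other blood cells moved the opposite way. Of 8 neutrophil markers 7 were lower, with a median of -1.49 and summed intensities of 986 and 802 at day 20, against 9980 and 6920 at day 4. Of 8 monocyte and macrophage markers 7 were lower, with sums of 1950 and 1330 at day 20, against 8130 and 6110 at day 4. Their median was -0.59, the same as that of the members. Ctss was at -3.60, Lyz2 at -2.88 and Apoe at -2.19, and the other 5 were between -0.59 and -0.13. This match depended on the processing. The median of these markers was -1.28 with an offset of 0 and -1.36 with the scanner software's ratios. In these settings the members had -0.60 and -0.62. For 6 erythroid markers, 5 of them lower, the sums were 1090 and 806 at day 20, against 2240 and 1750 at day 4, with a median log2 ratio of -1.13. For 3 basophil and eosinophil markers, all lower, the sums were 4860 and 3590 at day 20, against 29100 and 24000 at day 4. The median of these 3 was -0.45, with Mcpt8 at -2.78, Epx at -0.45 and Prg2 at -0.41. With an offset of 0 the medians were -2.55 for the neutrophil, -1.64 for the erythroid and -1.09 for the basophil and eosinophil markers. Camp, a neutrophil marker, was not well above background at day 20 on either array. The part of these cells in the lower member levels was not tested.

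Genes of cell division moved with the members as well. Of 10 tested, 7 were lower, with a median of -0.49, led by Mcm2 and Mcm5, parts of the replicative helicase, and Plk1, a mitotic kinase, at -0.80, -0.69 and -0.72. Their summed intensity was 20700 and 14900 at day 20, against 27600 and 20500 at day 4. None of the 10 passed with the scanner software's ratios. The 2 tested stromal markers did not pass and had a median of -0.09. The part of cell division in the member levels was not tested.

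The calls on single members depended on the processing more than the direction did. Of the 46 members past the threshold, 16 passed in the same direction under all 8 alternatives, and all 16 were lower: Ndufa5, Ndufa9, Ndufb2, Ndufc1, Ndufab1, Ndufaf4, Uqcrc1, Uqcr11, Cyc1, Cycs, Cox5b, Cox7a2, Cox7b, Cox7a1, Atp5g1 and Atp5k. With the scanner software's own ratios 16 members were lower and 0 were higher, against 3.49% of all tested genes lower, while the median of the members was -0.62. Near the threshold, Atp5a1, Cox5a and Atp5pb were just inside, with adjusted p of 0.033, 0.0346 and 0.0412, and Cox4i1, Atp5b and Ndufaf5 were just outside, with 0.0538, 0.0688 and 0.0891.

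**Figure D5:**
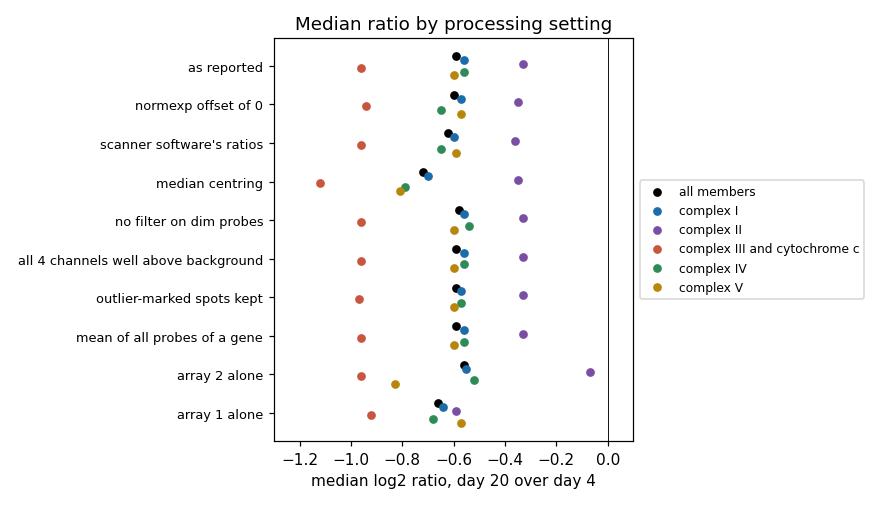
Median log2 ratio of day 20 over day 4 (x axis) for all members and for each complex under each processing setting that can move a ratio (rows), with the ratios of each array alone in the lowest rows. The median of all members lies between -0.72 and -0.56, and complex II moves most, from -0.59 on array 1 to -0.07 on array 2.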

How the data were processed

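The 2 samples are 2-colour arrays, and each gave 1 ratio of day 20 over day 4, with the sign of array 2 turned for the dye swap given in the labels. The authors scanned them with Agilent Feature Extraction, version 7.5 per the submitters' processing notes. The deposited scanner files hold mean spot signals and local backgrounds as intensity values, and processed log10 ratios of Cy5 over Cy3. On each array, 22393 of 22393 log10 ratios were the same in the deposited matrix within 1e-06. In the array 1 file, deposited background medians that read as month names were other than numbers and were read back (313 Cy3 and 324 Cy5 cells). Depth does not apply to arrays. Their number limits the precision, and by the scanner software's flags in the deposited files 93.1% and 90.5% of gene spots were well above background at day 20, against 96.2% and 80.0% at day 4.

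Log2 ratios were computed from the deposited intensities with R 4.3.3 and limma 3.58.1, using normexp with an offset of 50 and loess within arrays. Control spots and spots marked as outliers had no weight, marked spots were left out, and spots of a probe were averaged. A printed intensity is the antilog of the normalized channel value and includes the offset. Probes were named through RefSeq accessions of GRCm38.p6 (8947), symbols in descriptions (384), older symbols (275) or symbols not in that table (234), and 11028 kept an accession only. For several probes of a gene the brightest was used. Probe sequences were not used, so cross-hybridisation between paralogs or pseudogenes was not tested.

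Genes well above background in both day 20 or both day 4 channels were tested with lmFit and eBayes against 0, with Benjamini-Hochberg adjustment over 18074 genes and a threshold of 0.05. With 1 residual degree of freedom, the variance estimate rests mostly on the prior that limma fits over all genes (SD 0.163, 12 degrees of freedom), and no dye term could be fitted. Members and gene lists were chosen with earlier results of these data known. Named genes were up to 4 called members per role group and direction, all isoform pairs, members with several probes or unmeasured spots, and up to 3 called genes per list. Further members, and Gabpa, Esrra, Tfam, Hdc and other list genes beyond these, were named after their values were seen.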

Additional observations from a re-analysis of the deposited data

How the results depend on the processing

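The count of lower members was 44, and 16 with the scanner software's ratios. It lay between 30 and 45 in the other 7 alternatives. The count of higher members, 2, was 0 with the scanner software's ratios and 0 with median centring. Median centring lowered the medians to -0.72 for all members, -0.70 for complex I, -1.12 for complex III and cytochrome c, -0.79 for complex IV and -0.81 for complex V, with the median of all tested genes at -0.01. On single arrays the median ran from -0.66 to -0.56 for all members, -0.64 to -0.55 for complex I, -0.59 to -0.07 for complex II, -0.96 to -0.92 for complex III and cytochrome c, -0.68 to -0.52 for complex IV and -0.83 to -0.57 for complex V. Among single members, 59 calls were lost and 2 gained over all alternatives, and 1 sign turned, that of the pseudogene Atp5l-ps1, to 0.05 with median centring. Atp5pb moved by 1.65 times, to -0.59, with median centring. The cause was not tested. Leaving out an array leaves no residual degrees of freedom, so counts have no such value. The ratio within each array already pairs the days, so no further block was fitted. With 2 arrays, each from pools, the spread between single cultures was not measured, and dim probes have ratios compressed toward 0 by the offset.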
